A study of Mus musculus with 6 samples.

Results

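Spon1, Vit, Clec3a, Pi15, Ccdc3, C1qtnf7, Scube2 and Cilp are 8 genes that encode secreted proteins, many of them components of cartilage or other extracellular matrix. The 8 genes were chosen by their lower levels in the Idh1 mutant growth plates, out of 46078 genes listed in the count tables, and all 8 were among the 16813 genes with enough counts to be tested. The selection used the comparison of mutants with controls itself, so their levels in that comparison are given below as a description, without a test. Cartilage of the growth plates at the knee (distal femur, proximal tibia) of mouse embryos at E18.5 was profiled by bulk RNA sequencing, in 3 libraries of controls and 3 of mutants. The controls were Idh1 LSL/+, that is, they carried 1 copy of a mutant Idh1 allele kept silent by a lox-stop-lox cassette and had no Cre. The mutants were Col2a1-Cre; Idh1 LSL/+, in which Cre under the Col2a1 promoter removes the stop in cells that have expressed type II collagen, mainly chondrocytes. Both groups thus shared the targeted allele, and the Cre transgene and the expression of mutant Idh1 cannot be told apart. The study asked what the mutant enzyme changes in growth plate chondrocytes.

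Idh1 encodes the cytosolic isocitrate dehydrogenase, and its cancer-associated mutations give an enzyme that makes D-2-hydroxyglutarate and are common in enchondromas and chondrosarcomas. The growth plate is the layer of cartilage that lengthens a bone, and its chondrocytes pass from a resting to a proliferating to a hypertrophic state while they build a matrix of collagens, proteoglycans and smaller adhesive proteins. Some of these smaller proteins hold the fibres together, and others bind growth factors or lipid-modified signals such as hedgehog proteins and set how far they reach.

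The library totals lay between 23445687 and 30415773 counts, so that the level that 3 counts give, taken as the floor, was between 0.0986 and 0.128 CPM (counts scaled to a library's size with edgeR's TMM factors, which ran from 0.964 to 1.02). The floor covers counting error only. Mutant 3 stood apart from the rest, with 26356 counts of Xist, the RNA made from an inactive X chromosome, against 0 to 13 counts in the other libraries, and 512 counts on genes of chromosome Y against 4193 to 5829. These measures differ between the sexes, and the labels give no sex. Since only 1 library differs in this way, values without mutant 3 are given where a result rests on it. Idh1 itself had 1049, 1200 and 1809 counts across the controls against 1123, 1175 and 1635 in the mutants, which overlap; a count over the whole gene does not separate the alleles. Of the chondrocyte genes that define the labelled cell type, Col2a1 ranged from 1923 to 5245 CPM, Acan from 711 to 895 CPM and Sox9 from 75.1 to 121 CPM over the 6 libraries. The muscle myosin gene Myh8 was also high, at 4110 to 6697 CPM.

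The 8 genes lay on 7 chromosomes of the mouse genome build GRCm38. Spon1 (ENSMUSG00000038156) covers chr7:113765998-114043370 on the forward strand, 277.4 kb with 16 exons, and Scube2 (ENSMUSG00000007279) lies on the reverse strand of the same chromosome at chr7:109798676-109865679 with 22 exons. Vit (ENSMUSG00000024076) lies at chr17:78508063-78627409 with 14 exons, Cilp (ENSMUSG00000042254) at chr9:65265180-65280605 with 10 exons and Pi15 (ENSMUSG00000067780) at chr1:17601901-17630939 with 6 exons, all on the forward strand. Clec3a (ENSMUSG00000008874, chr8:114418086-114425846), Ccdc3 (ENSMUSG00000026676, chr2:5137776-5230878) and C1qtnf7 (ENSMUSG00000061535, chr5:43515538-43618803) have 3 exons each in their principal transcripts and are also read from the forward strand. Their predicted proteins range from 196 residues for Clec3a to 1250 residues for Cilp. The exons of Pi15 overlap those of the antisense gene Gm28154, and the exons of Ccdc3 overlap those of Gm26776 on the opposite strand. Reads were counted without strand, so reads from these pairs cannot be told apart.

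Promoter sequences of 4 of the 8 genes (Ccdc3, C1qtnf7, Scube2 and Cilp) were found in RefSeq for GRCm38.p6. The 250 bases before the start are shown for Ccdc3 and Cilp, which had the highest and the lowest ratio of observed to expected CpG of the 4. Whether the promoter sequence bears on the levels was not tested. The Ccdc3 window (chr2:5137526-5137775, forward strand) and the Cilp window (chr9:65264930-65265179, forward strand) are written from 5′ to 3′. Capitals mark matches on either strand to 7 motifs that were searched, which are the TATA box TATAAA, the GC box GGGCGG, the E-box CAGNTG, the SOX motif ACAATG, the RUNX motif TGTGGT, the AP-1 motif TGANTCA and the GLI motif TGGGTGG.
Ccdc3: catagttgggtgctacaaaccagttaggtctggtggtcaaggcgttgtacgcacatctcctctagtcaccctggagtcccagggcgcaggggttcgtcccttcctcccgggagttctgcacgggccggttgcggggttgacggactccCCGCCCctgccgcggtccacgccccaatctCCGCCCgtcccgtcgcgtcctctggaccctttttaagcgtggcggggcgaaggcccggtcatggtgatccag
Cilp: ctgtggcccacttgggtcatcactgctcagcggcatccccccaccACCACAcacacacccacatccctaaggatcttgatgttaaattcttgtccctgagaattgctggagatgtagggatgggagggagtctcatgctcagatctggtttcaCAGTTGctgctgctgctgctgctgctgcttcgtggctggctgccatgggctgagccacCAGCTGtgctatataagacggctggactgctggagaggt
The Ccdc3 window was 65.2% G and C and held 2 GC boxes and no other motif searched. Its CpG ratio was 0.830, and 83.2% of 32851 promoter windows of the same length had a lower one. The Cilp window was 56.0% G and C and held 2 E-boxes and 1 RUNX motif and no GC box. Its CpG ratio was 0.153, and 22.9% of the windows had a lower one. Scube2 stood near Ccdc3, with a ratio of 0.819 and 5 GC boxes, some of which overlap each other, and C1qtnf7 lay between, with a ratio of 0.484 and 1 E-box. A GC box was present in 32.7% of all windows, an E-box in 44.8% and a RUNX motif in 14.1%. The exact letters given for the TATA box, SOX, AP-1 and GLI were found in 12.4%, 10.7%, 6.75% and 8.11% of all windows and in none of the 4. Forms with other letters were not searched, such as the tatataag near the end of the Cilp window, which TATAAA does not match. No motif searched was shared by all 4 windows, and a match is only a match of letters.

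In the bulk tissue all 8 genes were lower in every mutant library than in every control library. The mean mutant level ran from 26.2% of the control mean for Vit to 60.6% for Cilp. A lower value in bulk tissue can come from fewer cells of a type or from less RNA per cell, which cannot be told apart here. By edgeR's quasi-likelihood test at a Benjamini-Hochberg adjusted p under 0.05, all 8 were among the 23 genes called lower, in a comparison where 0.137% of the tested genes were called lower and 0.190% were called in either direction. Levels without overlap, all mutants below all controls, were seen for 7.58% of tested genes. Since the genes were selected on this comparison, nothing is read from these counts. The median log2 fold change of the 8 was −1.25, beside a median of −0.0026 over all tested genes.

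Every call except that of Spon1 was lost in at least 1 of the 6 fits that left out a library. Calls at the same edgeR threshold fell from 8 to 2 genes without control 1, 2 without control 2, 4 without control 3, 2 without mutant 1, 1 without mutant 2 and 3 without mutant 3. With the replicate number as a block, edgeR called 1 of the 8 genes, Spon1, and DESeq2 called 8. The sizes moved less. Without mutant 3 the log2 fold changes were −1.32 for Spon1, −1.71 for Vit, −1.42 for Clec3a, −1.32 for Pi15, −0.85 for Ccdc3, −1.74 for C1qtnf7, −0.82 for Scube2 and −0.65 for Cilp, with a median of −1.32.

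**Figure D1:**
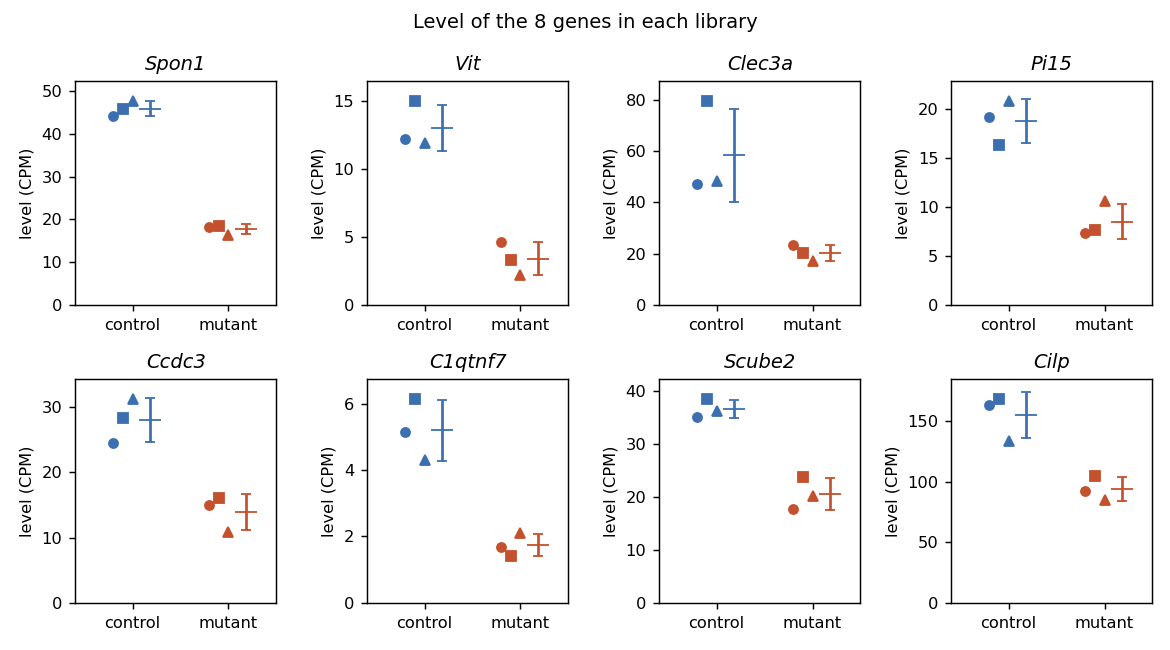
Level of each of the 8 genes in CPM (y axis, from 0) in the 3 control libraries (blue) and the 3 Idh1 mutant libraries (red); circles, squares and triangles are libraries 1, 2 and 3, and the bars give the mean and SD. The groups do not overlap for any of the 8 genes, with the narrowest gap for Cilp, where the lowest control was 1.28 times the highest mutant.

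The adhesive and fibre-associated proteins come first. Spon1 encodes F-spondin, a secreted protein with thrombospondin type 1 repeats that was first described in the floor plate of the neural tube. Its level was 44.1, 45.8 and 47.5 CPM in controls 1, 2 and 3 and 18.3, 18.53 and 16.5 CPM in mutants 1, 2 and 3. The libraries of each group lay close together, with a coefficient of variation of 3.67% across the controls against 6.30% in the mutants, the smallest of the 8 genes in both groups. The means were 45.8 ± 1.68 CPM (SD, n = 3) and 17.8 ± 1.12 CPM (SD, n = 3), a log2 fold change of −1.37 (standard error 0.087). The lowest control was 2.38 times the highest mutant.

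Vit encodes vitrin, a matrix protein with von Willebrand factor A domains. Its counts were 344, 459 and 329 across the controls against 110, 82 and 65 in the mutants, or 12.2, 14.98 and 11.9 CPM against 4.66, 3.33 and 2.24 CPM. Vit had the largest fall of the 8 genes, and its mutant libraries were also the most spread, with a coefficient of variation of 35.6%. The mean went from 13.0 ± 1.70 CPM to 3.41 ± 1.21 CPM (SD, n = 3 each), with a log2 fold change of −1.94 (standard error 0.23). Even so the lowest control was 2.55 times the highest mutant, the widest gap of the 8.

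Cilp encodes cartilage intermediate layer protein, a matrix protein known from the middle zone of articular cartilage that can bind TGF-beta 1. It was the most counted of the 8 genes, at 164, 168 and 134 CPM across the controls against 92.9, 104.7 and 84.9 CPM across the mutants. Control 3 was the low library of the controls and mutant 3 the low library of the mutants, and the groups stayed apart. The means were 155 ± 18.9 CPM and 94.1 ± 9.92 CPM (SD, n = 3 each), a log2 fold change of −0.72 (standard error 0.11), the smallest fall of the 8. Because Vit fell further than Cilp, the number of Vit counts for every 100 Cilp counts went from 7.45, 8.89 and 8.88 in the controls to 5.02, 3.18 and 2.64 in the mutants.

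Clec3a encodes a C-type lectin of the tetranectin type that is found in cartilage. Its level was 47.2, 79.3 and 48.5 CPM across the controls against 23.4, 20.2 and 17.2 CPM across the mutants. Control 2 was far above the other controls and gave Clec3a the largest control spread of the 8, a coefficient of variation of 31.2%. The means were 58.3 ± 18.2 CPM and 20.3 ± 3.14 CPM (SD, n = 3 each), with a log2 fold change of −1.53 (standard error 0.20). Without control 2 the fold change was −1.24 on the log2 scale, and the groups stayed apart with or without it.

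Pi15 encodes a secreted protein of the CAP family that was described as a weak trypsin inhibitor. It had 19.2, 16.4 and 20.8 CPM across the controls against 7.37, 7.64 and 10.6 CPM across the mutants. Mutant 3 was the high library here, unlike for most of the 8 genes. The means were 18.8 ± 2.23 CPM and 8.54 ± 1.80 CPM (SD, n = 3 each), a log2 fold change of −1.13 (standard error 0.16).

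The next genes encode products of a signalling type. C1qtnf7 encodes a secreted relative of adiponectin, with a collagen-like stretch and a C1q domain. It was the least counted of the 8, with 145, 188 and 119 counts across the controls against 40, 35 and 61 in the mutants, or 5.15, 6.13 and 4.30 CPM against 1.70, 1.42 and 2.10 CPM. All 6 values were above the floor of 3 counts. The means were 5.19 ± 0.918 CPM and 1.74 ± 0.342 CPM (SD, n = 3 each), with a log2 fold change of −1.57 (standard error 0.23).

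Ccdc3 encodes a secreted coiled-coil protein known from fat and endothelial cells. Its level was 24.5, 28.4 and 31.2 CPM across the controls against 15, 16.01 and 10.8 CPM across the mutants. Mutant 3 was the low library and controls 2 and 3 the high ones. The means were 28.04 ± 3.37 CPM and 13.9 ± 2.75 CPM (SD, n = 3 each), a log2 fold change of −1.01 (standard error 0.15).

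Scube2 encodes a secreted protein with EGF-like repeats and a CUB domain that helps to release lipid-modified hedgehog proteins from the cells that make them. Its level was 35.2, 38.5 and 36.3 CPM across the controls against 17.8, 23.8 and 20.3 CPM across the mutants. The controls lay close together, with a coefficient of variation of 4.66%, and the mutants were more spread, at 14.4%. The means were 36.7 ± 1.71 CPM and 20.6 ± 2.98 CPM (SD, n = 3 each), with a log2 fold change of −0.83 (standard error 0.11).

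**Figure D2:**
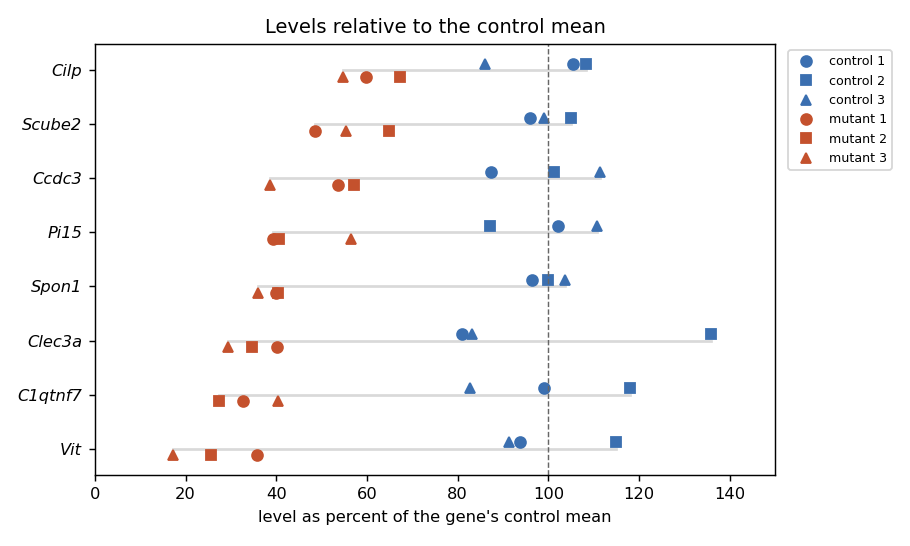
Level of each gene in each library as a percent of that gene's control mean (x axis); blue symbols are controls and red symbols mutants, with circle, square and triangle for libraries 1, 2 and 3. The mutant libraries lie at 17.2% to 67.3% of the control mean and the controls at 80.9% to 136%.

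Seen by library, the fall was of like size in the 3 mutants. The median of the 8 genes, as a percent of each gene's control mean, was 40.0% in mutant 1, 40.5% in mutant 2 and 39.5% in mutant 3. In mutant 2 the genes ran from 25.6% for Vit to 67.3% for Cilp, and in mutant 3 from 17.2% for Vit to 56.4% for Pi15. Summed over the 8 genes, the level was 352, 398 and 334 CPM across the controls against 181, 196 and 165 CPM across the mutants, a sum to which Cilp gave the most.

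Compared per length of exon, as RPKM (CPM divided by the length of the counted exons in kilobases), the order of the genes differed from the order by counts. Clec3a was the highest, at 98.7 ± 30.7 RPKM across the controls against 34.3 ± 5.31 RPKM across the mutants (SD, n = 3 each). Its counted exons hold 591 bases, nearly all coding, whereas untranslated ends were counted for the others, so levels per length are not fully alike in what they count. Cilp followed at 36.6 ± 4.44 RPKM, then Ccdc3 at 10.5 ± 1.26 RPKM, Scube2 at 8.83 ± 0.412 RPKM and Spon1 at 5.61 ± 0.206 RPKM in the controls. The lowest levels were those of Vit at 4.79 ± 0.623 RPKM, Pi15 at 2.72 ± 0.322 RPKM and C1qtnf7 at 1.25 ± 0.221 RPKM. The counted exons of C1qtnf7 sum to 4162 bases against 1283 in its principal transcript, so its level per length depends on which transcripts are made. The order of mean RPKM was the same in the mutants. Ccdc3 and Scube2, neighbours in the order, had overlapping ranges in both groups, as did Spon1 and Vit in the controls and Vit and Pi15 in the mutants. Among all tested genes Clec3a ranked 399 by control RPKM and C1qtnf7 ranked 12346, so the 8 genes span abundant and scarce transcripts.

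**Figure D3:**
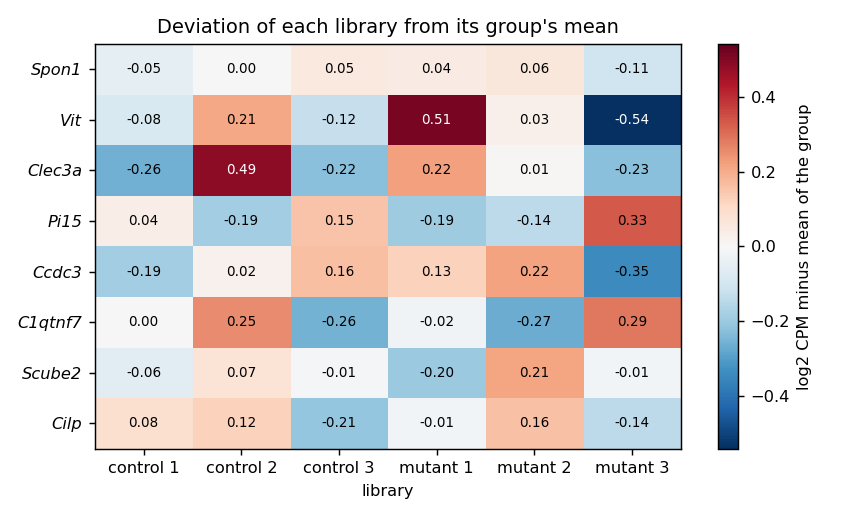
Deviation of each library from the mean of its own group (log2 CPM, colour and printed value) for each gene (rows) and library (columns). Control 2 lies above the control mean for 7 of the 8 genes and mutant 3 below the mutant mean for 6 of the 8.

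Within a group the 8 genes did not rise and fall as one. Control 2 was above the control mean for 7 of the 8 genes and mutant 3 below the mutant mean for 6 of the 8, with Pi15 and C1qtnf7 as the exceptions. Over all 6 libraries the Pearson correlation of log2 CPM between pairs of the 8 genes was 0.800 to 0.970 (28 pairs), which the difference between the groups that chose them fixes in large part. With each group's mean subtracted, the correlation ran from −0.913 for Vit and Pi15 to 0.998 for Spon1 and Ccdc3, with a median of 0.188 and 17 of 28 positive. These correlations rest on 6 libraries that share their depth and tissue dissection, and are given as a description.

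The genes whose pattern was most like that of the 8 were found by the Pearson correlation, over the 6 libraries, with the mean of their standardised log2 CPM. This mean follows mainly the group difference that chose the 8 genes, so a high correlation with it largely restates that difference. Tet1 came first (r = 0.998), with mean levels of 26.5 CPM across the controls and 22.5 CPM across the mutants. The log2 fold change of Tet1 was −0.24, with an adjusted p of 0.441 by edgeR. Next came Pthlh (r = 0.997), Kcnk2 (r = 0.997), Cetn2 (r = 0.994) and Clpp (r = 0.994). Pthlh encodes parathyroid hormone-related protein, a signal made by resting chondrocytes, and had mean levels of 3.76 and 1.58 CPM. Tet1 encodes an enzyme that oxidises methylated cytosine and depends on 2-oxoglutarate. Kcnk2, a potassium channel gene, had 8.19 and 4.35 CPM and was called lower (log2 fold change −0.91, adjusted p 0.0389 by edgeR). With the group means subtracted the most alike genes were others, led by Top3b (r = 0.997), a topoisomerase gene, Gm5526 (r = 0.995), RP24-372J8.2 (r = 0.995), 4930481A15Rik (r = 0.995) and 4933413J09Rik (r = 0.994). With 6 libraries and 16813 genes, high correlations arise in number, and the order of the leading genes carries little weight.

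Sequence relatives of the 8 genes, which the selection did not use, were read from the same fit. Of 44 relatives in 7 families (Ccdc3 had none in the lists), 35 were tested, and edgeR's quasi-likelihood test called 0 of them at a Benjamini-Hochberg adjusted p under 0.05. At an unadjusted p under 0.05 there were 11 of the 35, where 8.64% of all tested genes had one, limma-voom called 0, and DESeq2 called 4, in a comparison where DESeq2 called 1.15% of tested genes. The median log2 fold change of the 35 was −0.12, beside −0.0026 for all tested genes. Of the 35, 5 had every mutant below every control, against 7.58% of all tested genes.

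The closest relative of Spon1 was also made in this tissue at a higher level. Spon2, which encodes another spondin, had 110, 81.8 and 79.6 CPM across the controls against 79.6, 84.5 and 104 CPM across the mutants. Its groups overlapped and its log2 fold change was −0.02 (standard error 0.14). The number of Spon1 counts for every 100 Spon2 counts was 40.1, 56.1 and 59.7 across the controls against 22.9, 21.9 and 15.8 in the mutants. Thsd4, a further thrombospondin-repeat gene, had means of 109 and 106 CPM, and Rspo2, which encodes an enhancer of Wnt signalling, had 21.7 and 21.6 CPM.

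Scube1 and Scube3 encode the relatives of Scube2, and neither had a lower mean in the mutants. Scube3 had a mean of 32.3 CPM across the controls against 37.0 CPM across the mutants, which gave a log2 fold change of 0.20 (standard error 0.13), and Scube1 had 22.2 and 23.9 CPM. Scube2 and Scube3 were thus at like counts in the controls and apart in the mutants, with 96.3, 111.9 and 139 Scube2 counts for every 100 of Scube3 across the controls against 46.2, 72.0 and 51.4 in the mutants.

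Cilp2, the only relative of Cilp, had 42.0, 51.9 and 48.3 CPM across the controls against 34.2, 36.3 and 22.98 CPM across the mutants. Its groups did not overlap, and its log2 fold change of −0.61 (standard error 0.16) was near that of Cilp but had an adjusted p of 0.269 by edgeR, while DESeq2 gave an adjusted p of 0.0230. Of the tetranectin-type lectins, Clec11a, which encodes a growth factor for bone-forming cells, had means of 182 and 123 CPM (log2 fold change −0.56, standard error 0.11) with an adjusted p of 0.114 by edgeR and 0.000563 by DESeq2. Clec3b, which encodes tetranectin, had 141 CPM across the controls against 135 CPM across the mutants.

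Among the matrilins and other von Willebrand factor A relatives of Vit, Matn2 had a mean of 222 CPM across the controls against 184 CPM across the mutants, with overlapping groups. Matn4 had 96.5 and 63.0 CPM (log2 fold change −0.62, adjusted p 0.394 by edgeR). Matn1, which is specific to cartilage, had means of 69.3 and 70.7 CPM but varied widely between libraries. It had 83.2, 104 and 20.6 CPM across the controls against 99.4, 39.0 and 73.7 CPM across the mutants. Of the CAP-domain relatives of Pi15, Crispld1 had 54.1 and 35.2 CPM (log2 fold change −0.63, adjusted p 0.366 by edgeR), and Glipr2 and Crispld2 had 71.5 and 67.0 CPM and 47.9 and 43.9 CPM. In the family of C1qtnf7 the most counted genes were C1qtnf3, at 237 and 178 CPM, C1qtnf6, at 185 and 145 CPM, and C1qc, a complement gene of macrophages, at 63.8 and 71.7 CPM. DESeq2, but not edgeR, called C1qtnf6 (adjusted p 0.0201) and C1qtnf2 (47.1 and 32.7 CPM, adjusted p 0.0165) lower. C1qtnf2 is named here after its values were seen.

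**Figure D4:**
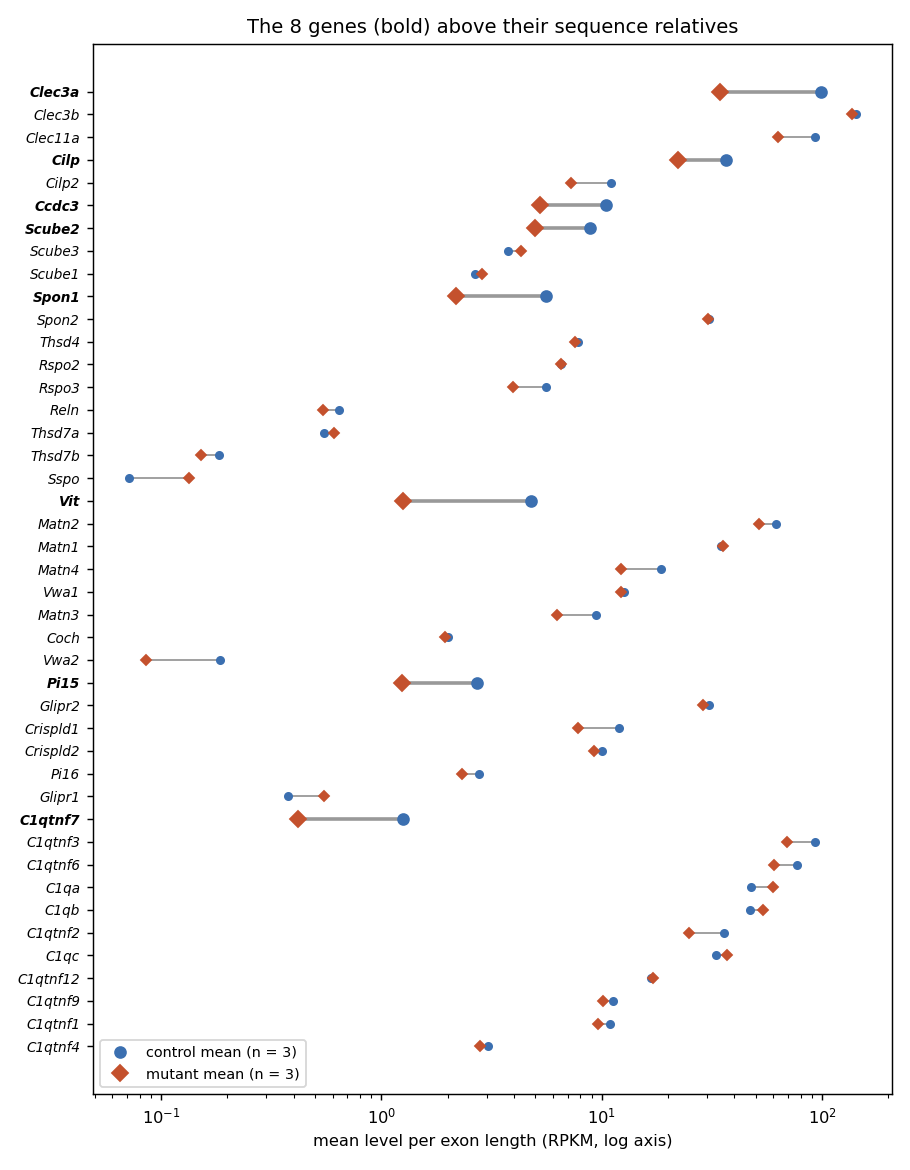
Mean level per exon length (RPKM, log axis) of the 8 genes (bold, large symbols) and of their tested sequence relatives, in controls (blue circles) and Idh1 mutants (red diamonds), n = 3 each and without error bars. The gap between groups is wide for the 8 genes, which were chosen for it, and small for most relatives, such as Spon2 and Clec3b.

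The partners of the 8 proteins were examined next, from lists of 29 genes for hedgehog release and response, receptors of F-spondin, the plasminogen system, and TGF-beta and IGF1 ligands and receptors. Of 26 tested, edgeR called 0, with 7 at an unadjusted p under 0.05, against 8.64% of all tested genes. For these partners limma-voom called 0 and DESeq2 called 3, where DESeq2 called 1.15% of all tested genes. Their median log2 fold change was −0.018. F-spondin binds members of the low-density lipoprotein receptor family and the amyloid precursor protein. App had 650 CPM across the controls against 625 CPM across the mutants, Lrp4 had 62.1 and 67.3 CPM, and Vldlr had 35.3 and 44.9 CPM (log2 fold change 0.35, adjusted p 0.405 by edgeR). Igf1, whose product Cilp proteins are reported to oppose, had 451 and 441 CPM. Plat, which encodes a plasminogen activator, had 30.7 and 27.98 CPM.

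The hedgehog list bears on Scube2, whose product acts on hedgehog release. Of its 11 tested genes edgeR called 0, with 5 at an unadjusted p under 0.05, against the same 8.64% of all tested genes. DESeq2 called 3, against 1.15% of all tested genes, and limma-voom called 0. The median log2 fold change was −0.19. The most counted of them were the co-receptors Gas1, at 367 and 381 CPM, Cdon, at 327 and 362 CPM, and Boc, at 233 and 225 CPM. The genes that hedgehog signals are known to raise are named here after their values were seen. Hhip had 36.6, 39.8 and 27.7 CPM across the controls against 22.5, 19.1 and 21.5 CPM across the mutants (log2 fold change −0.72, standard error 0.14, adjusted p 0.103 by edgeR and 0.000432 by DESeq2). Gli1 had 96.8, 120.1 and 100.7 CPM across the controls against 83.8, 74.2 and 62.0 CPM across the mutants (log2 fold change −0.53, adjusted p 0.182 by edgeR and 0.00937 by DESeq2). Ptch1 had 118, 117 and 136 CPM against 103, 87.5 and 70.0 CPM (log2 fold change −0.51, adjusted p 0.265 by edgeR and 0.0292 by DESeq2). In these genes every mutant was below every control, as for Scube2 and for 7.58% of all tested genes. With control 3 left out edgeR also called Hhip, and it called none of the partners without any other library. The ligand gene Ihh, also named after its values were seen, had a mean of 4.82 CPM across the controls against 4.03 CPM across the mutants, and its libraries overlapped.

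Markers of the cell types that the dissected tissue could hold were set beside the 8 genes, 81 genes in all with 76 tested. At the edgeR threshold 3 were called, Tnmd lower, Krt5 lower and Sfrp5 higher, where 0.190% of all tested genes were called. DESeq2 called 8 of the markers, where it called 1.15% of all tested genes. With 1 library left out, edgeR kept Krt5 without control 1 and Tnmd without control 3, and called 0 of the markers without any of the other 4 libraries. Tnmd, which encodes tenomodulin of tendons and ligaments, went from 548, 527 and 437 CPM to 257, 287 and 321 CPM (log2 fold change −0.81, adjusted p 0.0374 by edgeR). Of the 8 tendon and ligament markers, 5 had every mutant below every control, against 7.58% of all tested genes. Of these markers 1 was called by edgeR and 5 by DESeq2, which called 0.190% and 1.15% of all tested genes. Their median log2 fold change was −0.49. Their summed level was 1598 to 1634 RPKM across the controls against 1139 to 1292 RPKM across the mutants. The groups of this sum did not overlap, as for the 8 genes, but not every marker in the list fell. Fmod (means of 520 RPKM across the controls and 306 RPKM across the mutants) and Tnmd (372 and 213 RPKM) had the largest falls in RPKM. Thbs4 (248 and 251 RPKM), Col12a1 (167 and 160 RPKM) and Tnc (150 and 164 RPKM) had overlapping groups. The part of the tendon signal in the levels of the 8 genes was not tested.

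The summed level of the 7 joint surface markers overlapped between the groups, at 160 to 226 RPKM across the controls against 141 to 166 RPKM across the mutants, and that of the 8 chondrocyte markers did too, at 566 to 1221 and 895 to 1283 RPKM. The 6 resting chondrocyte markers summed to 540 to 622 RPKM across the controls against 493 to 527 RPKM across the mutants, without overlap, but most of that sum was Bgn, with means of 496 and 451 RPKM. Within this list Sfrp5, which is also known from proliferating and prehypertrophic cells, was called higher (0.988 to 4.47 CPM, log2 fold change 2.17, adjusted p 0.0374 by edgeR). Pthlh, among the genes most like the 8, had a log2 fold change of −1.26 without overlap (adjusted p 0.0591 by edgeR and 0.000645 by DESeq2). Blood markers summed to 617 to 1781 RPKM across the controls against 327 to 486 RPKM across the mutants, also without overlap. The main fits of edgeR, DESeq2 and limma-voom called 0 of these 5 genes. By edgeR 4 had an unadjusted p under 0.05, which were the globin genes Hba-a1, Hbb-bs and Hbb-bt with log2 fold changes of −1.30, −1.44 and −1.37 and, in the other direction, the leukocyte gene Ptprc with 0.58. These 3 globin genes were called by edgeR without the filter on low counts. Krt5, an epidermal keratin gene, went from 5.46 to 0.239 CPM (adjusted p 0.0355 by edgeR), with 1 mutant library at 0. The epidermis markers together summed to 3.93 to 8.14 RPKM across the controls against 3.40 to 3.54 RPKM across the mutants. Most of that difference was Krt5, with means of 2.49 and 0.109 RPKM. Krt10 (6.08 and 5.92 CPM) and Trp63 (3.18 and 2.85 CPM) had overlapping groups. Muscle markers overlapped, at 7023 to 11055 and 6514 to 9367 RPKM. Lists for loose connective tissue and perichondrium, proliferating and hypertrophic chondrocytes, osteoblasts and endothelium also overlapped in their summed levels. The main fits of edgeR, DESeq2 and limma-voom called 0 genes in each, and 0 to 2 genes of each had an unadjusted p under 0.05 by edgeR. The osteoblast sum was mostly Col1a1, with means of 5810.5 and 5853 RPKM. The mineralisation genes Dmp1 (37.0 and 125 CPM, log2 fold change 1.75) and Ibsp (475 and 1190 CPM, log2 fold change 1.32) were called by edgeR without the filter on low counts. In the main edgeR fit their adjusted p was 0.522 and 0.557. Their controls were widely spread, at 82.9, 21.4 and 6.76 CPM for Dmp1 and 974, 332 and 120 CPM for Ibsp. Of the adipocyte markers, which bear on Ccdc3, only Fabp4 had enough counts to be tested, at a mean of 127 CPM across the controls against 120 CPM across the mutants, and Adipoq, Plin1, Lep and Cidec had 0 to 7 counts in a library. Of the markers, Fmod, Thbs4, Col12a1, Tnc, Sox9, Grem1, Ptprc, Dmp1, Lep and Cidec are named after their values were seen. The part of resting chondrocytes, blood and epidermis in the levels of the 8 genes was not tested.

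**Figure D5:**
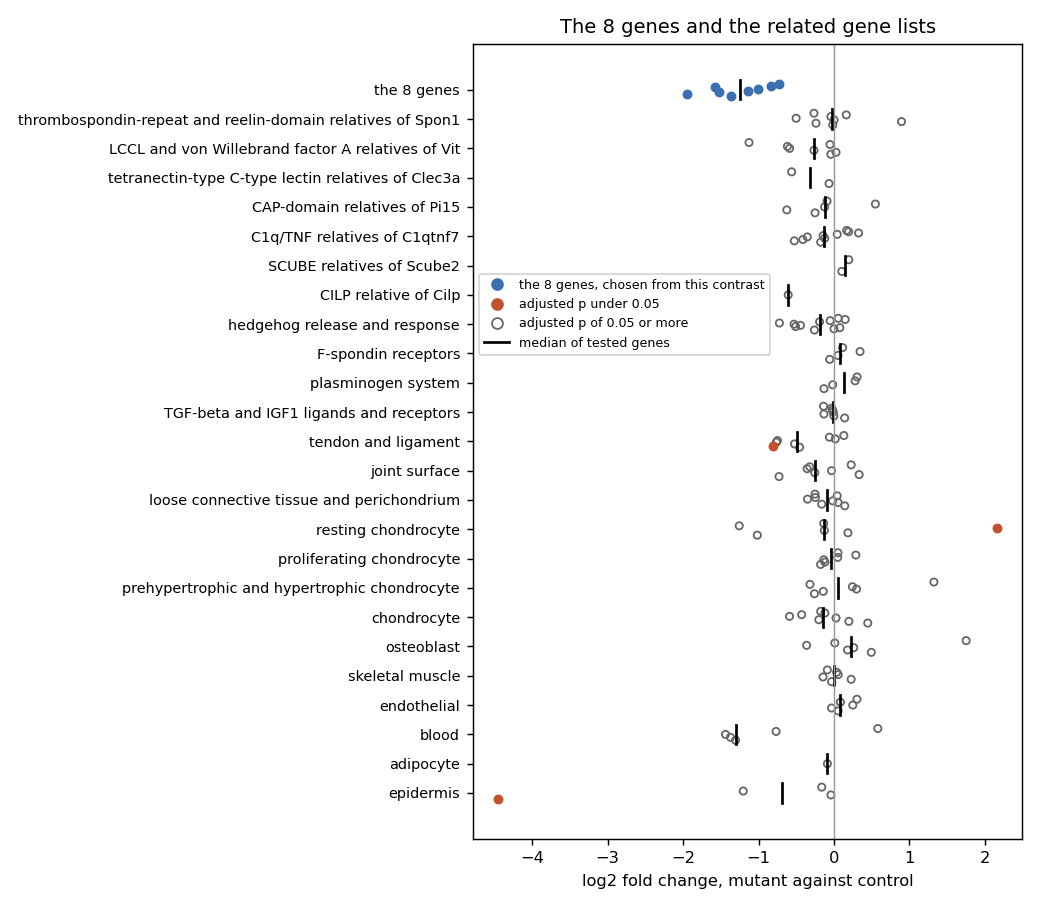
Log2 fold change, mutant against control (x axis), of the 8 genes (blue) and of each tested gene in the lists of relatives, partners and cell type markers (rows); red points passed the adjusted p of 0.05 by edgeR, open points did not, and black bars are medians. Outside the 8 genes, Tnmd, Krt5 and Sfrp5 are the 3 red points.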

How the data were processed

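RNA of 6 growth plate libraries was taken from the sample labels as 3 control and 3 Idh1 mutant libraries, and the labels do not name the litters or say whether each library came from its own embryo, so p-values measure the spread between these libraries. The study's own model had litter as a term, which could not be fitted here. The labels give E18.5, while their text on breeding gives 2 months; E18.5 was used. The values deposited by the authors are raw counts of reads per gene, made with Trim Galore 0.6.4, STAR 2.6.1d on GRCm38 and featureCounts 1.6.4, counted without strand. The counts were tested with edgeR 4.0.16 in R 4.3.3 (filterByExpr, minimum count 10 and minimum total 15, TMM factors, quasi-likelihood test on genotype, Benjamini-Hochberg adjustment over 16813 genes, threshold 0.05), and all fold changes are mutant against control on the log2 scale. The common dispersion was 0.0173. CPM and RPKM were computed from the same counts. The main fit used all 6 libraries and imputed none, and no libraries were repeats of each other, with a chi-square per degree of freedom of 11.5 to 45.5 between replicates. The scripts were tested on simulated data.

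The 8 genes, the lists of relatives, partners and markers and the tests were chosen with earlier results of these data known. The text names all 8 genes, of each list every gene past the threshold and otherwise up to 3 with the highest control mean, and the 5 genes most like the 8 by each of the 2 correlations, and other genes are said to have been named after their values were seen. Gene models came from GENCODE on GRCm38 and promoter sequences from RefSeq on GRCm38.p6. The alternatives were DESeq2 1.42.0, limma-voom (limma 3.58.1), upper-quartile factors, other filters on low counts, the replicate number as a block, and each library left out in turn. Python 3.11.15 with matplotlib 3.10.9 made the figures.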

Additional observations from a re-analysis of the deposited data

How the results depend on the processing

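The fold changes of the 8 genes kept their direction in all 104 refitted values, and their median lay between −1.32 and −1.20. The kept direction carries no weight as a test. The genes were chosen on this comparison, their groups did not overlap, and each refit used the same libraries, so a change of sign could hardly arise. The counts of called genes moved more, and the cause was not tested. With DESeq2 the calls over all genes rose from 32 to 193 (140 lower), with 4 relatives, 3 partners and 8 markers called. With limma-voom there were 19 calls (12 lower), of which 5 were among the 8 genes, and 1 marker. Without a filter on low counts there were 259 calls (182 lower), with 5 relatives, 3 partners and 15 markers. With 1 library left out, all calls ranged from 3 to 17, lower calls from 1 to 12, calls among the 8 genes from 1 to 4, among partners from 0 to 1 and among markers from 0 to 1, so that the count of calls rests on 6 libraries.

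The labels do not tie the replicate numbers to litters. With each group's mean subtracted, the correlations of same-numbered libraries over the tested genes were −0.116, 0.014 and −0.0747. The best match of each control bore another number. With 3 libraries in a group these values cannot show whether same-numbered libraries shared a litter. With the replicate number as a block, edgeR called 3 genes (1 lower, which was Spon1 among the 8, and 0 markers). DESeq2 with the block called 96 (70 lower), with 2 relatives, 2 partners and 8 markers, the globin genes Hba-a1, Hbb-bs and Hbb-bt among them. The order of the 8 genes by level also depends on the scale, since Cilp ranked first by counts and Clec3a first per exon length.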
